A study of Mus musculus with 3 samples.

Results

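Ctcf, Yy1, Zfp143, Ldb1, Maz and Adnp encode DNA-binding or adaptor proteins that hold, place or limit chromatin loops. They were taken by symbol from the count tables of 3 replicate experiments and are 6 of the 52636 genes counted. Each symbol matched 1 row in each table, and the rule goes by name and uses no measured value.

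Mouse embryonic stem (ES) cells of the C57BL/6N line JM8.N4 were profiled one by one with Smart-SCRB, a plate-based method that tags each captured RNA molecule with a unique molecular identifier (UMI), in control cells and in cells given the auxin analog indole-3-acetic acid (500 µM) for 6 h. In all cells, controls included, both copies of Rad21 carry GFP and a mini auxin-inducible degron, so that auxin degrades the RAD21 subunit of cohesin. All cells came from this 1 edited background, which limits the series as a model, and were grown without feeders on gelatin in serum, LIF and the inhibitors PD0325901 and CHIR99021. The question put to these 6 genes was whether the transcripts of other loop-forming factors moved when cohesin was removed.

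Cohesin extrudes chromatin loops and halts where CTCF is bound, so CTCF sites mark many loop anchors and domain borders. YY1 and the adaptor LDB1, which dimerizes, link enhancers with promoters. ZFP143 and MAZ are zinc finger proteins found at promoters and at many CTCF sites, and ADNP joins CHD4 and HP1 proteins in a complex that can keep CTCF from some of its sites.

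The 14 plates used held 1167 cells with more than 2600 detected genes: 168, 371 and 85 control cells and 169, 290 and 84 auxin-treated cells in replicates 1, 2 and 3. Median depth per cell ran from 72317 UMIs in control cells of replicate 3 to 187088 in the auxin group of replicate 2, and 54 of the 61 cells above 250000 UMIs were in that last group. No cell name was shared between tables. Rad21 transcripts, which the degron does not target, had levels of 20.9, 31.2 and 42.4 CPM (UMIs of the gene over all UMIs of the group, scaled to the same total) in the controls of replicates 1 to 3 and of 19.3, 34.0 and 45.2 CPM after auxin. The tables of the replicates differed in the counts of defining ES cell markers. Sox2 had 2790 UMIs before and 1871 after auxin in replicate 1 and 0 in replicates 2 and 3, while Nanog was at 496, 58.6 and 525 CPM in control cells. Pou5f1 was at 273 CPM in control cells of replicate 1 and at 8.40 and 12.5 CPM in those of replicates 2 and 3. Whether the 0 counts of Sox2 reflect its level or the way reads were assigned to genes in each table was not tested.

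On mm10 with GENCODE vM21 gene models, Ctcf (ENSMUSG00000005698) lies at chr8:105636568-105682922 on the plus strand, Yy1 (ENSMUSG00000021264) at chr12:108792973-108820148 on the plus strand and Zfp143 (ENSMUSG00000061079) at chr7:110061217-110095394 on the plus strand. Ldb1 (ENSMUSG00000025223) lies at chr19:46031570-46045214, Maz (ENSMUSG00000030678) at chr7:127022130-127027037 and Adnp (ENSMUSG00000051149) at chr2:168180986-168207112, all on the minus strand. Whole promoters of 300 bases (250 before and 50 after the start, RefSeq, GRCm38.p6) were searched on both strands for the YY1 core ATGGCGG, because YY1 is itself one of the 6 proteins. The table used holds 10 such promoters for the 6 genes, at least 1 for each, and not every annotated start of these genes. The core was in 3 of these 10 promoters, 1 each of Ctcf, Maz and Adnp, and in 4.05% of all 32851 promoters. The windows below show the core in capitals with 10 bases on each side, read 5′ to 3′ on the strand that holds it, which is opposite to the gene in each case.
Ctcf: cggacacaaaATGGCGGcggcgcggtg
Maz: gctgggatccATGGCGGagggaggagg
Adnp: cctagccaaaATGGCGGccgagaaaga
The Ctcf window (chr8:105636536-105636562, minus strand) has its core 9 bases into the RefSeq transcript, upstream of the GENCODE start. The Maz window (chr7:127026975-127027001, plus strand) has it 15 bases into the transcript, in the GENCODE first exon, and the Adnp window (chr2:168207103-168207129, plus strand) 7 bases before the start. None of the 3 cores overlapped a match to the GC box GGGCGG, which was in 9 of the 10 promoters, with at least 1 for each of the 6 genes, and in 35.7% of all promoters. The MAZ core GGGAGGG was in 5 of the 10, promoters of Ctcf, Ldb1 and Maz, and in 21.95% of all. These are matches of letters only.

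Ctcf, the zinc finger protein at loop anchors, was at 179.0, 99.5 and 101.1 CPM in control cells of replicates 1, 2 and 3 and at 175.3, 142.3 and 110.7 CPM in auxin-treated cells. The control values rest on 3226, 4881 and 613 UMIs and the auxin values on 3372, 7180 and 740. Replicate 1 control cells thus held more Ctcf than those of the other replicates, and the auxin value was above its own control in replicates 2 and 3 and below it in replicate 1. Auxin over control gave log2 ratios of −0.03, 0.52 and 0.13, on average 0.21 ± 0.28 (SD, n = 3; exact two-sided sign-flip permutation test, p = 0.5, the smallest possible being 0.25). In UMIs per cell, the means were 19.2, 13.2 and 7.21 in control cells and 20.0, 24.8 and 8.81 in auxin-treated cells, on the scale set by each group's depth.

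Yy1, a zinc finger protein that binds enhancers and promoters and can dimerize, was at 150.3, 74.8 and 87.2 CPM in control cells and at 195.2, 105.0 and 92.6 CPM in auxin-treated cells. The control values rest on 2709, 3671 and 529 UMIs and the auxin values on 3753, 5295 and 619. Auxin-treated cells were above the control cells of their own replicate in 3 of 3 replicates, although the groups overlapped because replicate 1 was high in both conditions. In replicate 3 this direction depends on which plates are used. The sources gave different conditions for 2 of its 4 plates, which were left out, and with all 4 plates Yy1 was at 80.9 CPM in control and 91.4 CPM in auxin-treated cells by the deposited annotation, but at 88.7 and 83.7 CPM by the source column. The log2 ratios were 0.38, 0.49 and 0.086, on average 0.32 ± 0.21 (SD, n = 3; exact two-sided sign-flip permutation test, p = 0.25, the smallest that 3 replicates can give).

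The other factors gave smaller or noisier ratios. Zfp143, a promoter-binding zinc finger protein, was at 23.9, 26.2 and 29.5 CPM in control cells and at 22.8, 26.7 and 28.6 CPM in auxin-treated cells, with log2 ratios of −0.067, 0.027 and −0.047. Its levels differed more between replicates than between conditions. Ldb1, the dimerizing adaptor for LMO and GATA proteins, was at 20.9, 15.7 and 24.9 CPM in control cells and at 22.4, 15.9 and 20.5 CPM in auxin-treated cells, with log2 ratios of 0.10, 0.020 and −0.28. The widest of these gaps was in replicate 3, which has 1 plate per condition. Maz, a zinc finger protein of GC-rich promoters, was at 2.4, 3.2 and 3.8 CPM in control cells and at 3.3, 3.2 and 3.4 CPM in auxin-treated cells, from 23 to 160 UMIs a group. At this depth its log2 ratios of 0.45, −0.0042 and −0.14 had no shared direction. Smart-SCRB reads come from the 3′ end of transcripts, and the RefSeq end of Maz lies 680 bases beyond its GENCODE model. For the other looping factors this distance is 0 to 45 bases. Whether it lowered the Maz counts was not tested.

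Adnp, the homeodomain partner of CHD4, gave 9 UMIs in the controls and 3 in the auxin group of replicate 1 and 0 UMIs in all 4 groups of replicates 2 and 3, so it did not pass the filter on low counts. Fitted with no filter, its edgeR log2 fold change over replicates was −1.62 ± 2.21 (SE; adjusted p = 1.00), which at these counts says little. In GENCODE vM21 it lies inside the longer gene Gm20716 on the same strand (chr2:168180986-168230364), with 4393 exonic bases in common, and Gm20716 itself had at most 3 UMIs in any group. Dpm1, a mannosyltransferase gene also inside Gm20716, had 706 and 711 UMIs in the controls and the auxin group of replicate 1, and 1 to 6 UMIs in each group of the other replicates. The part of this overlap in the Adnp counts was not tested, and the 0 counts therefore say nothing firm about whether the gene was expressed. Other overlaps were between strands. The exon-sharing neighbors of Ctcf, Agrp and Gm5914, and Pprc1 beside Ldb1 are on the opposite strand, and Zfp143 lies within the antisense gene 1600010M07Rik, which had 11 and 6 UMIs in the controls and auxin group of replicate 1, but 1747 and 1491 in those of replicate 2 and 194 and 170 in those of replicate 3. Whether counting used the strand is not given in the sources used here, so reads of such partners cannot be told apart.

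**Figure D1:**
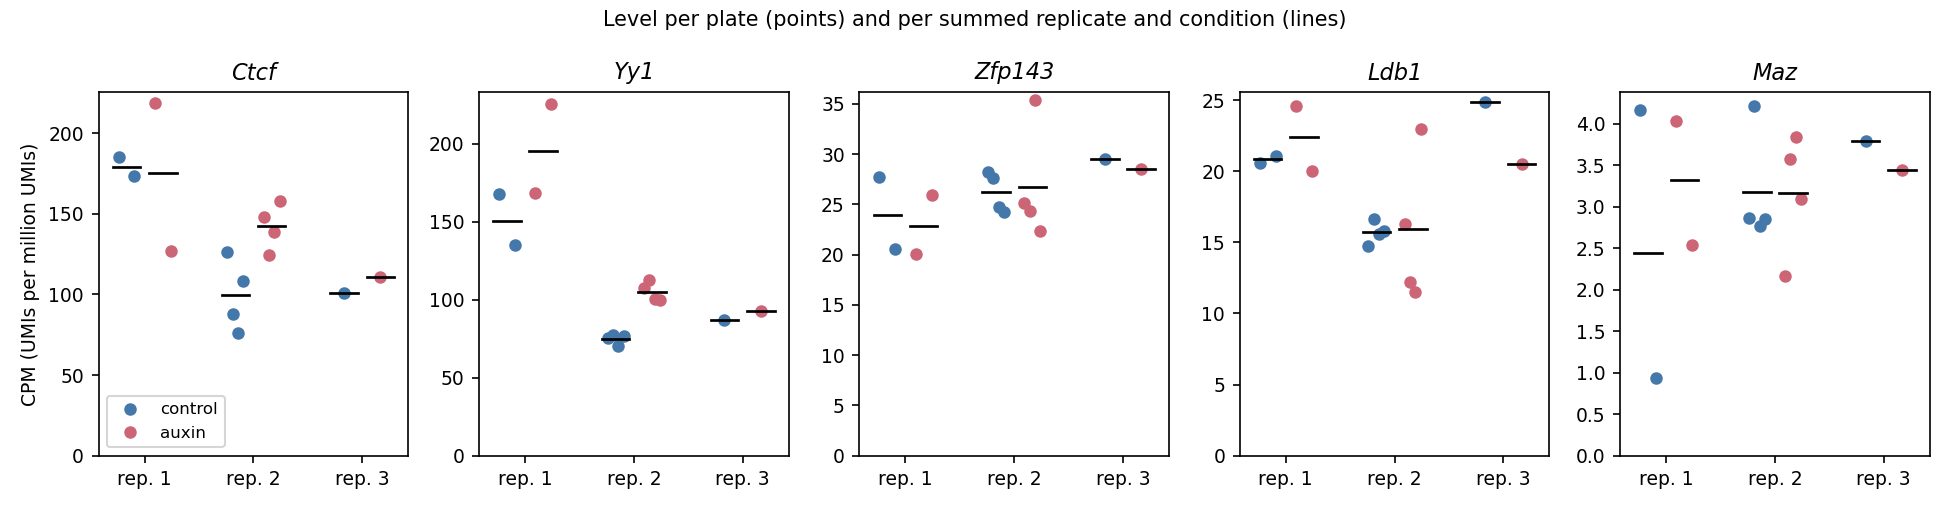
Level of each gene in CPM (y axis, from 0, with its own scale in each panel) on every plate used, by replicate (x axis), with control plates in blue and auxin plates in red; lines give the value of all cells of a replicate and condition summed. In replicate 2, the 4 Yy1 auxin plates sit between 99.8 and 112.8 CPM and the 4 control plates between 70.1 and 77.1 CPM, while the plates of Zfp143, Ldb1 and Maz overlap. The share of all genes with plates set apart like those of Yy1 was not counted.

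Counts summed over the cells of each replicate and condition were compared with edgeR's quasi-likelihood test on 17514 genes, with Benjamini-Hochberg adjustment. Of the 5 looping factors tested, 0 were called, beside 0% of all genes (0 genes, with 33 at an unadjusted p under 0.05; DESeq2 called 0, which is 0%, with 66 under 0.05). The log2 fold change was 0.13 ± 0.44 (SE) for Ctcf, 0.31 ± 0.54 for Yy1, −0.04 ± 0.23 for Zfp143, −0.06 ± 0.36 for Ldb1 and 0.10 ± 0.51 for Maz, each with an edgeR adjusted p of 1.00. Their median was 0.099, against −0.001 over all genes tested. In summed cells, fewer cells of a kind and less RNA per cell cannot be told apart.

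Control and auxin-treated cells of the same replicate moved together across genes, and fitting the replicate as a block narrowed the intervals. In that edgeR fit, Yy1 was higher with auxin by a log2 fold change of 0.31 ± 0.11 (SE; 95% interval 0.07 to 0.55; unadjusted p = 0.0182), but its adjusted p was 0.771, and its rank by p was 403 among the 17514 genes. With all replicate 3 plates placed by the source column the value was 0.24 (interval −0.03 to 0.51; unadjusted p = 0.0762), and by the annotation 0.33 (interval 0.12 to 0.54; unadjusted p = 0.0065; edgeR adjusted p = 0.640). The Ctcf value was 0.19 ± 0.12 (interval −0.08 to 0.47; edgeR adjusted p = 0.865). For Zfp143 the interval ran from −0.39 to 0.31, for Ldb1 from −0.45 to 0.33 and for Maz from −0.79 to 0.97, the last being the widest and that of the gene with the fewest UMIs of the 5. With the block, 0 of the 5 factors were called, beside 0.0171% of all genes, and by DESeq2 with the block 0 of 5, beside 0.32%.

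**Figure D2:**
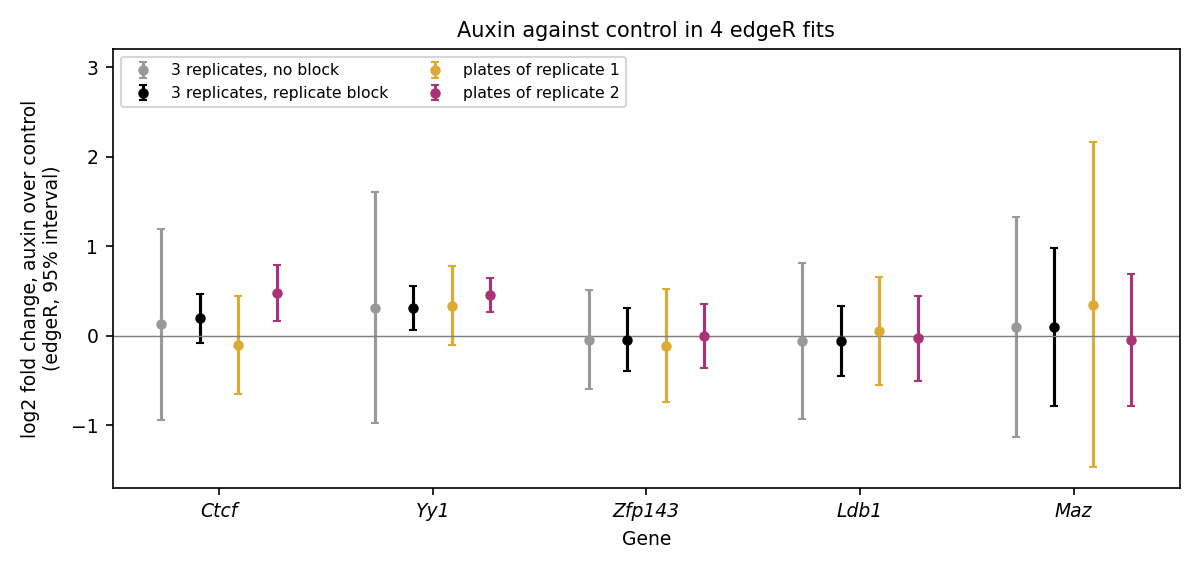
Log2 fold change of auxin over control (y axis) for the 5 genes that could be tested (x axis), with 95% intervals from 4 edgeR fits: the 3 replicates without and with a replicate block, and the plates of replicate 1 and of replicate 2 alone. The Yy1 points lie between 0.31 and 0.45 in the 4 fits, and the Ctcf points lie between −0.10 and 0.48.

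Replicate 2 had 4 plates per condition and gave the closest view of the gap between control and auxin-treated cells. These are the cells that also make up replicate 2 in the comparison above, and nothing in the labels says that the plates came from separate cultures, so p-values over plates measure a spread that may be technical. Yy1 was at 75.4, 77.1, 70.1 and 76.7 CPM on the control plates and at 107.4, 112.8, 100.2 and 99.8 CPM on the auxin plates. Every auxin plate was above every control plate, with means of 105 ± 6.26 and 74.8 ± 3.21 CPM (SD, n = 4 plates each) and a ratio of 1.40 (exact two-sided permutation test, p = 0.0286, the smallest that 4 against 4 can give). How many of all genes were separated in this way was not counted, so the separation is not shown to be particular to Yy1. By edgeR, 3311 of 16349 genes had an unadjusted p under 0.05 on these plates. Ctcf was at 126.2, 88.1, 75.8 and 108.2 CPM on the control plates and at 147.9, 124.1, 138.5 and 157.7 CPM on the auxin plates. Of the auxin plates, 3 were above all control plates and 1 was just below the highest, with means of 142 ± 14.3 and 99.6 ± 22.2 CPM, a ratio of 1.43 (exact permutation test, p = 0.0571).

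The other 3 genes overlapped between conditions on these plates. Zfp143 ran from 24.3 to 28.2 CPM on control and from 22.4 to 35.4 CPM on auxin plates. Ldb1 ran from 14.8 to 16.6 CPM on control plates and more widely, from 11.5 to 22.99 CPM, on auxin plates. Maz ran from 2.77 to 4.22 and from 2.16 to 3.84 CPM.

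Across the 16349 genes tested over the plates of replicate 2, 1 of the 5 looping factors was called by edgeR, Yy1, beside 5.43% of all genes. Yy1 rose by a log2 fold change of 0.45 ± 0.09 (SE; interval 0.26 to 0.64; edgeR adjusted p = 0.0117). With 1 plate left out at a time its adjusted p ran from 0.0174 to 0.0408. Ctcf reached 0.48 ± 0.14 (interval 0.17 to 0.79) with an edgeR adjusted p of 0.0753, on the other side of the threshold. It was called by DESeq2 (adjusted p = 0.0104), as was Yy1 (6.88e-05), 2 of 5 beside 9.84% of all genes. It was also called by edgeR with no filter on low counts (adjusted p = 0.0369, beside 2.65% of all genes) and without control plate 1, the highest of its control plates (log2 fold change 0.60, adjusted p = 0.0285, beside 3.41%), a choice of plate that raises the ratio by construction. Leaving out any of the other 7 plates gave adjusted p from 0.0789 to 0.176, and the log2 fold change was lowest, 0.35, without control plate 3. Zfp143 gave −0.0025 (interval −0.36 to 0.36), Ldb1 −0.03 (−0.50 to 0.44) and Maz −0.05 (−0.78 to 0.69). The median of the 5 was −0.003, against 0.007 over all genes.

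Other measures moved with condition on the same plates. Without the cells above 250000 UMIs, which were mostly auxin-treated, the values were 0.48 for Yy1 (edgeR adjusted p = 0.024) and 0.57 for Ctcf (0.0732). Of the 7 ES cell markers tested, 7 were below 0 and, beside 5.43% of all genes called in either direction, 3 were called lower, Nanog (−0.63, edgeR adjusted p = 0.0215), Esrrb (−1.41) and Dppa5a (−0.79). The summed level of the 8 ES cell markers was 4530 CPM before and 2944 CPM after auxin in replicate 2, 9935 and 9175 CPM in replicate 1, and 7844 and 8253 CPM in replicate 3, but most of each sum was Dppa5a (3560 CPM in control cells of replicate 2). Taken singly, Pou5f1, Esrrb, Utf1 and Tdgf1 were lower with auxin in 3 of 3 replicates. Zfp42 was higher in replicates 1 and 3 (log2 ratios 0.14 and 0.39), Nanog in replicate 1 (0.18) and Dppa5a in replicate 3 (0.13). Each was lower in its other replicates. The share of all genes lower in 3 of 3 was not counted. In the edgeR fit over replicates with the block 6 of 7 markers were below 0 and none was called. Of these 6, 4 had an unadjusted p under 0.05, beside 1036 of all 17514 genes. Nestin (Nes), a neural progenitor marker, rose by 0.75 (edgeR adjusted p = 0.0160) on these plates, while Pax6, the other neural marker tested there, gave 0.066. Eomes, a mesoderm marker at low counts, gave −4.70 (edgeR adjusted p = 0.0054). The 3 neural markers together were at 32.1, 42.8 and 10.6 CPM in control cells of replicates 1 to 3 and at 23.8, 61.8 and 5.38 CPM after auxin. Sox1 made up most of the control value of replicate 1 (26.8 of 32.1 CPM). After auxin it was at 10.8 of 23.8 CPM there, below Nes at 11.4 CPM. Sox1 had 0 UMIs in the other replicates. Nes by itself was higher with auxin in replicates 1 and 2 (4.94 and 11.4 CPM, then 24.8 and 42.6 CPM). Nes was lower with auxin in replicate 3 (8.24 and 3.59 CPM). The 3 fibroblast markers were at or below 7.75 CPM in every group. The 3 mesoderm markers summed to 20.9, 2.75 and 6.43 CPM in control cells, mostly Eomes (19.0, 1.73 and 3.96 CPM). After auxin they summed to a lower 11.0, 0.833 and 4.64 CPM, of which Eomes was 8.22, 0.059 and 2.09 CPM. Mixl1 was higher with auxin in replicate 1 (1.05 and 2.60 CPM) and T in replicate 3 (1.15 and 1.50 CPM), each lower in its other replicates. The 4 primitive endoderm markers summed to 4.99, 5.63 and 8.41 CPM in control cells and to 7.54, 5.73 and 15.9 CPM after auxin, with Sox17 and Pdgfra higher and Gata4 and Gata6 lower in 3 of 3 replicates, each at or below 8.82 CPM. The part of these differences in the Yy1 and Ctcf values was not tested.

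Replicate 1, with 2 plates per condition, gave another picture for Ctcf than for Yy1. Ctcf was at 185.4 and 173.5 CPM on the control plates and at 218.3 and 127.0 CPM on the auxin plates, which lay on either side of the controls. Yy1 was at 168.1 and 134.8 CPM on the control plates and at 168.2 and 225.4 CPM on the auxin plates, both just or well above them. The edgeR log2 fold changes over these plates were −0.10 for Ctcf (interval −0.65 to 0.45) and 0.34 for Yy1 (interval −0.11 to 0.78, adjusted p = 0.991), and 0 of 5 factors were called, beside 0% of all 13583 genes (713 genes at an unadjusted p under 0.05). Replicate 3 has 1 plate per condition and no such test.

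Whether replicates 1 and 2 differed in their response was tested as an interaction over their 12 plates, a comparison added after the data were seen. The difference of the log2 fold changes, replicate 2 minus replicate 1, was 0.56 for Ctcf (interval −0.07 to 1.20; edgeR adjusted p = 0.516) and 0.11 for Yy1 (interval −0.28 to 0.49; adjusted p = 0.9498). None of the 5 factors was called, beside 0.359% of all genes, so these replicates were not shown to differ for any of them.

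The levels of Ctcf and Yy1 were farther apart between replicates than between conditions. In control cells, replicate 2 was below the mean of replicates 1 and 3 by a log2 fold change of −0.72 ± 0.67 (SE) for Ctcf and −0.89 ± 0.67 for Yy1. Ldb1 gave −0.69, Zfp143 −0.17 and Maz −0.09, so 5 of 5 were below 0, with a median of −0.69 against 0.011 over all genes. With 1 sample in replicate 2 and 1 in each of the others, this test has little precision (Ctcf interval −2.43 to 0.98), and edgeR called 0 of the 5, beside 0% of all 20257 genes (607 at an unadjusted p under 0.05; DESeq2 called 0 of the 5 and 2.43% of all). Replicate 1 carried the gap for Ctcf and Yy1. Against replicate 3 alone, the values were 0.03 for Ctcf and −0.17 for Yy1, and against replicate 1 alone they were −1.24 and −1.40. In auxin-treated cells the values against both were −0.28 for Ctcf and −0.75 for Yy1. Replicates differ in experiment, in depth and possibly in the counting that gave the 0 values of Sox2 and Adnp, which cannot be told apart.

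The share of cells with at least 1 UMI was highest for Ctcf and Yy1 and lowest for Adnp. Ctcf was detected in 85.1%, 84.1% and 80.0% of control cells and in 85.8%, 82.4% and 77.4% of auxin-treated cells of replicates 1 to 3. Its 95% Clopper-Pearson intervals, which cover counting error only, were 78.8 to 90.1% for the controls of replicate 1 and 67.0 to 85.8% for the auxin group of replicate 3. The share of Ctcf-positive cells was thus nearly level between conditions, also in replicate 2, where the auxin-treated cells held more Ctcf UMIs. Yy1 was detected in 89.3%, 78.4% and 80.0% of control cells and in 91.7%, 86.6% and 83.3% of auxin-treated cells, higher with auxin in 3 of 3 replicates on the plates used. With all 4 plates of replicate 3, the shares there were 80.1% and 79.5% by the annotation and 77.8% and 81.7% by the source column. The mean difference was 4.63 ± 3.05 percentage points (SD, n = 3; exact two-sided sign-flip permutation test, p = 0.25, the smallest possible), and for Ctcf it was −1.21 ± 1.70 (p = 0.5).

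Zfp143, Ldb1 and Maz were caught in fewer cells. Ldb1 was detected in more control cells than Zfp143 in replicates 1 and 3, at a lower CPM. Zfp143 was detected in 35.1%, 51.8% and 44.7% of control cells and in 40.8%, 50.3% and 57.1% of auxin-treated cells. Ldb1 was detected in 53.0%, 50.9% and 48.2% of control and in 55.0%, 46.9% and 42.9% of auxin-treated cells. For neither gene did the 3 replicates share a direction, although Zfp143 was higher with auxin in 3 of 3 among cells above 4000 detected genes (5.43, 0.812 and 15.02 points; exact permutation test, p = 0.25, the smallest possible). Maz was detected in 19.6%, 25.1% and 18.8% of control and 24.3%, 30.3% and 21.4% of auxin-treated cells, a mean difference of 4.17 ± 1.39 points (exact permutation test, p = 0.25). Adnp was detected in 1.79% of control and 1.18% of auxin-treated cells in replicate 1. In replicate 2 it was detected in 0 of 371 and 0 of 290 cells, which allows shares of up to 0.809% and 1.03%, and in replicate 3 in 0 of 85 and 0 of 84 cells (up to 3.53% and 3.57%). These limits (3 cells of the total) are for cells with an Adnp UMI in these tables, for counting error only, and not for cells expressing the gene, given the overlap with Gm20716.

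Depth per cell differed between these groups, so each cell was also thinned at random to 20000 UMIs, which left out between 0 and 13 cells a group. At equal depth, Yy1 was detected in 78.0%, 62.0% and 66.7% of control cells and in 79.9%, 70.04% and 70.9% of auxin-treated cells, a mean difference of 4.73 points. Ctcf was detected in 76.2%, 63.9% and 65.5% of control cells and in 75.1%, 66.8% and 62.0% of auxin-treated cells. The mean Zfp143 difference was 5.58 ± 6.92 points before and 1.27 ± 1.89 points after thinning. The Maz difference shrank from 4.17 to 1.32 ± 2.94 points, with shares of 3.57 to 7.59%, near the level of 1 UMI. In wells at or below 2600 detected genes, which hold little or no cell RNA, Ctcf was detected in 8.51%, 7.48% and 8.70% and Yy1 in 4.26%, 5.61% and 17.4% of the 47, 107 and 23 wells, whose median depths were 324, 625 and 6354 UMIs. The shares in these wells were 1.87 to 8.70% for Zfp143, 1.87 to 4.35% for Ldb1 and 2.13 to 4.35% for Maz. The cell shares of Ctcf, Yy1, Zfp143 and Ldb1 were above these in every replicate, also after thinning, whereas the thinned Maz share in control cells of replicate 3 (3.57%) was below the 4.35% of its wells.

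**Figure D3:**
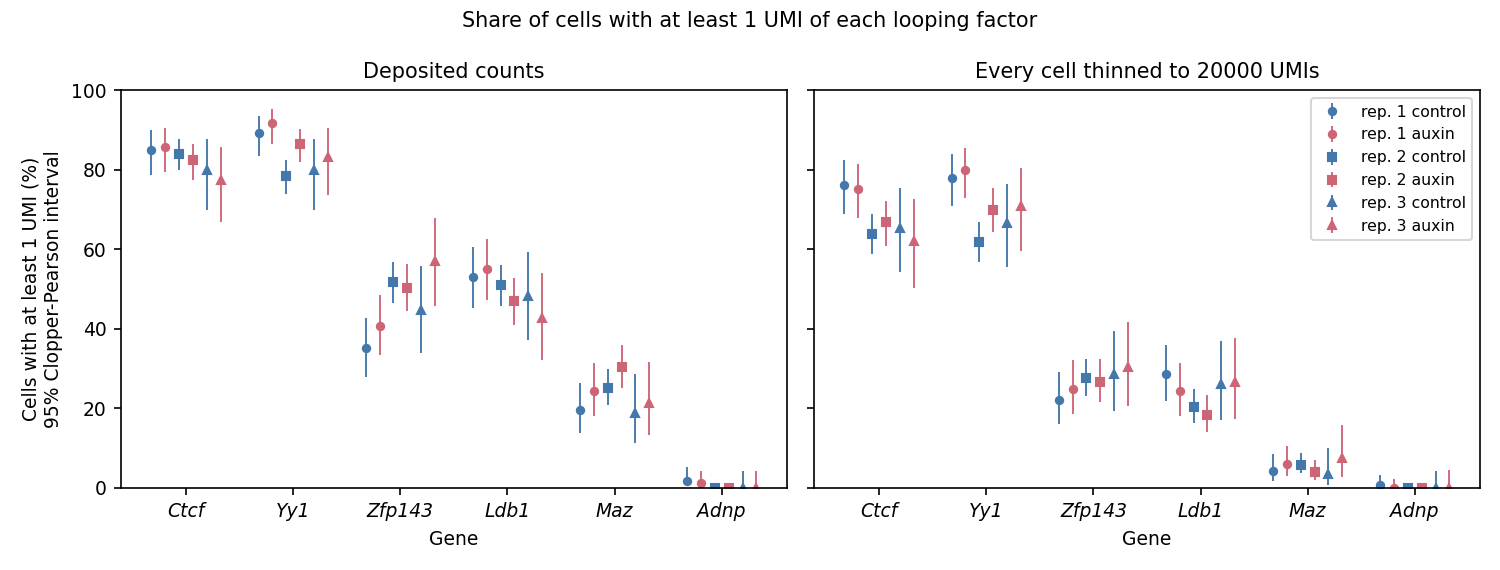
Share of cells with at least 1 UMI (y axis, percent, with 95% Clopper-Pearson intervals) of each gene (x axis) by replicate and condition, from the deposited counts on the left and with every cell thinned to 20000 UMIs on the right. Yy1 is higher with auxin in 3 of 3 replicates on both sides, from the plates used, and Adnp is at 0 in replicates 2 and 3.

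Among cells of equal depth, Ctcf counts were spread more widely than those of most genes with a mean of 1 to 5 UMIs. The Fano factor, the variance over the mean across cells, was 4.43, 3.46 and 3.33 for Ctcf in control cells and 3.89, 4.25 and 2.73 in auxin-treated cells. The median of all genes with a mean of 1 to 5 UMIs was 2.69, 2.61 and 2.28 in control and 2.49, 2.77 and 2.20 in auxin-treated cells. Yy1 had 2.35, 2.05 and 2.44 in control and 2.92, 2.35 and 1.98 in auxin-treated cells, above that median in 2 of 6 groups. Ctcf was above it in 6 of 6 groups. No shared direction with auxin was seen for either gene, since Ctcf was lower in replicates 1 and 3 and higher in replicate 2.

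**Figure D4:**
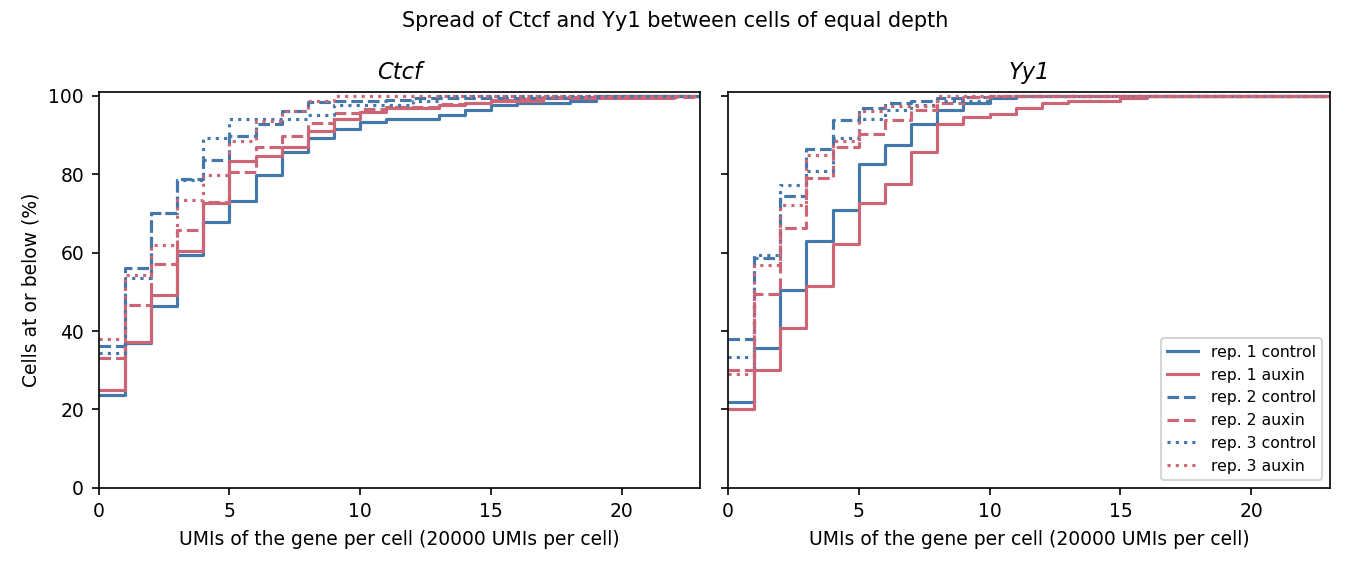
Percentage of cells (y axis) at or below each number of UMIs of Ctcf (left) and Yy1 (right) per cell (x axis) after thinning to 20000 UMIs, by replicate (line style) and condition (color). The Ctcf lines of control and auxin-treated cells start close together in replicate 1, at 23.8% of control cells without a UMI, and the Yy1 auxin lines start below the control lines in all 3 replicates.

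Counts of pairs of these genes within the same cell had weak correlations. After thinning, the Spearman correlation of Ctcf and Yy1 across cells lay between −0.14 and 0.098 in the 6 groups, with a median of 0.03, and the medians of all 10 pairs lay between −0.062 and 0.033. Over all pairs and groups the values ran from −0.25 (Ctcf and Zfp143, auxin-treated cells of replicate 3) to 0.16 (Yy1 and Zfp143 in the same group). Correlations of this size in sparse counts are no finding. Across the 14 plates, which share replicates and depth, Ctcf and Yy1 had a Pearson correlation of log2(CPM + 1) of 0.694, and of 0.343 once each replicate was centered on its mean.

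The genes most like each factor across these 14 plates were taken among 8712 genes with a mean of at least 10 CPM, as a description. For Ctcf they were Ezh2, the methyltransferase subunit of Polycomb complex PRC2 (r = 0.876, or 0.799 with replicates centered), and Upf3a, a nonsense-mediated decay factor (0.874 and 0.827). For Yy1 they were the co-chaperone gene Dnaja2 (0.970 and 0.887) and Actr3, a subunit of the ARP2/3 actin complex (0.961 and 0.856). These genes were picked for their likeness on these plates, so the values are not a test. For Zfp143 they were Eif2s1 (0.793 and 0.752), a translation initiation subunit, and Hgsnat (0.776 and 0.693). For Ldb1 they were Zfp984 (0.876 and 0.704) and Commd10 (0.837 and 0.660), and for Maz the nuclear export receptor gene Xpo5 (0.831 and 0.833) and Mdm1 (0.813 and 0.831). For Adnp, whose UMIs are all in the 4 plates of replicate 1, they were Lars2 (0.919) and Gm6563 (0.853).

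Proteins known to act with the 6 factors, and their paralogs, formed a list of 29 genes, of which 26 were tested over the 3 replicates. In the edgeR comparison, 11 were above 0 and 15 below, none was called, and the median log2 fold change was −0.063, against −0.001 over all genes. With the replicate block, 13 were above and 13 below 0 and none was called. All 4 genes listed for CTCF were below 0, with a median of −0.21, but none passed the test, and over the plates of replicate 2 the 3 of them tested gave 2 above and 1 below 0 (median 0.0032). Among them were Ctcfl, the testis paralog of Ctcf at or below 1.32 CPM (−1.08 ± 1.52, SE), and Wiz, a zinc finger protein that shares sites with CTCF (−0.28 ± 0.31). Of the YY1 list, the Polycomb partner Rybp gave −0.27 and the paralog Zfp42, known as Rex1, 0.16. Of the LDB1 list, the paralog Ldb2 gave −0.64 and Lmo1, whose product binds LDB1, 0.37, both at or below 4.62 CPM. Hcfc1 (−0.09) and Thap11 (−0.02) for ZFP143, Vezf1 (0.16) and Patz1 (0.12) for MAZ, and Cbx3 (0.25) and Chd4 (−0.11) for ADNP were all within their SE. Over the plates of replicate 2, 25 of the list were tested, none was called by edgeR and the median was −0.14.

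The cohesin list, 10 genes of the ring, its loader and its release factors, had 6 genes above and 4 below 0 over the replicates, with none called and a median of 0.023. Wapl, which releases cohesin from chromatin, was at 70.2, 104 and 108 CPM in control and 50.4, 88.8 and 73.4 CPM in auxin-treated cells. It was lower with auxin in 3 of 3 replicates on the plates used, with a log2 fold change of −0.43 ± 0.11 (SE) with the block (unadjusted p = 0.0046, edgeR adjusted p = 0.677). Pds5a, a WAPL partner, was at 26.4, 52.0 and 36.4 CPM in control and 27.4, 36.3 and 30.4 CPM in auxin-treated cells. It fell by 0.56 on the log2 scale over the plates of replicate 2 (edgeR adjusted p = 0.0380), where it was the 1 gene of the 10 called, beside 5.43% of all genes, and gave −0.26 ± 0.16 over the replicates with the block.

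**Figure D5:**
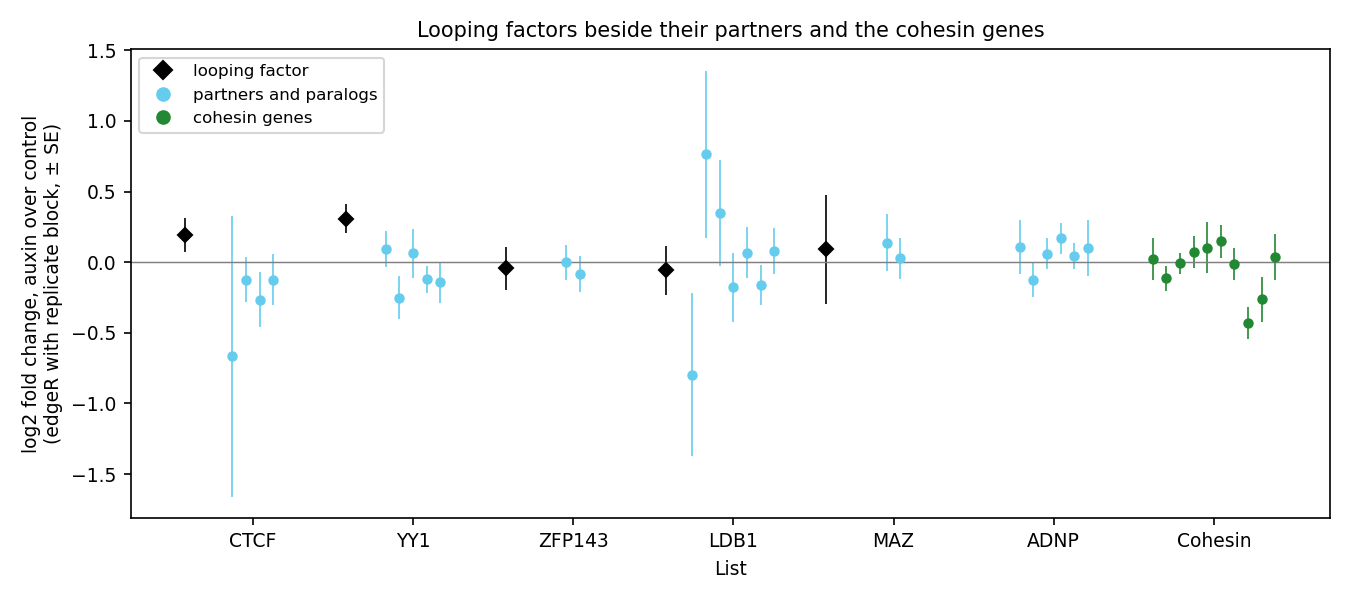
Log2 fold change of auxin over control with its SE (y axis) from the edgeR fit with replicates as a block, for the looping factors (black diamonds), the genes listed for each (light blue) and the cohesin genes (green), grouped by list (x axis). Yy1 at 0.31 and Wapl at −0.43 lie farther from 0 than 2 SE, and none of the points shown passed the adjusted threshold of 0.05.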

How the data were processed

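Smart-SCRB libraries of 3 replicates were deposited by the authors as UMI counts per gene and well, mapped to mm10 per the labels, beside ERCC spike-in percent and a saturation fraction per well. The aligner, counting rule and annotation are not given in the sources used here. Rows for ERCC and transgenes (3.65% of counts) were left out of library sizes. The filter was the study's, above 2600 detected genes, and no doublet caller was run. Replicate 1 plates named RAD21 positive and negative were read as control and auxin. In replicate 3, the condition given by the deposited annotation and by the source column differed for 2 of 4 plates, so 168 cells on them were not used.

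Counts were summed per replicate and condition, or per plate, and tested with edgeR 4.0.16 (TMM, filterByExpr, quasi-likelihood, Benjamini-Hochberg, threshold 0.05, R 4.3.3). The fits were first run on simulated counts without a replicate effect. These data have such an effect, so that run does not measure error rates here. DESeq2 1.42.0, other filters, the block and leaving out samples were alternatives. Same-numbered groups deviated together (r = 0.866, 0.824 and 0.666 over 17514 genes), and the study repeated the whole procedure per replicate, so the numbers pair the samples. Shares, thinning (seed 1) and permutation tests used Python 3.11.15, numpy 2.4.6, pandas 2.3.3 and scipy 1.17.1. The members and lists were chosen with earlier results of these data known. Named genes were the 6 members, Rad21, list genes past the threshold over replicates or else the 2 largest changes per list, and the 2 genes most correlated with each member. Markers and Pds5a or Dpm1 values beyond that rule were chosen after their values were seen.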

Additional observations from a re-analysis of the deposited data

Results flagged for a closer look

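Among the control plates of replicate 2, Maz had 1 plate at 4.22 CPM that stood apart from the other 3. Its gap to the nearest plate was 0.933 of the whole range, above Dixon's 95% limit for 4 values. In all, 10 groups of 4 plates were tested, and chance sets apart about 1 in 20 such groups.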

How the results depend on the processing

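Over the replicates, edgeR called 0 genes. With the replicate block it called 3 (DESeq2 with the block 56), 14, 32 and 2 without replicates 1, 2 and 3 and with the block, 3 with the replicate 3 plates taken by annotation and the block but 0 by source column and the block (700 at an unadjusted p under 0.05), and 2 without cells above 250000 UMIs and with the block, an alternative chosen after seeing the data. The block changed no call for a looping factor. Replicate 2 against the others gave 477 genes with no filter and 493 by DESeq2. Over the plates of replicate 2, against 888 genes, DESeq2 called 1608, leaving out 1 plate 469 to 671, removing cells above 250000 UMIs 491, and the plates of replicate 1 gave 0. Yy1 over replicates stayed above 0 and uncalled in 17 of 17 alternatives (0.23 to 0.40). Ctcf, also uncalled in 17, depended on the replicate left out, with 0.00053 without replicate 2 and 0.34 without replicate 1, and the mean share differences kept direction in 12 of 12. Other values turned sign, as did Ctcf outside the comparison over replicates. Over replicates these were Zfp143 with the replicate 3 plates by source column (0.063, with the block 0.058), Maz with 1 replicate left out (−0.070 to 0.20, with the block −0.065 without replicate 1), and Ldb1 with 1 left out (−0.15 to 0.040, with the block 0.026 without replicate 3) and by annotation (0.018 and 0.010). Maz in replicate 2 against the others gave 0.00015 by annotation and Ctcf −1.24 to 0.026 with 1 replicate left out. Over plates of replicate 2, Zfp143 gave 0.0010 with DESeq2 size factors, 0.0082 with no filter, 0.00095 by DESeq2 and −0.18 to 0.069 with 1 plate left out. Maz gave 0.043 above 4000 detected genes, 0.35 on plates of replicate 1, 0.29 without cells above 250000 UMIs and −0.16 to 0.14 with 1 plate left out. Ldb1 gave 0.048 on plates of replicate 1, 0.053 without those cells and −0.28 to 0.084, and Ctcf −0.10 on plates of replicate 1. The causes were not tested. Maz rests on 23 to 160 UMIs a group.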
